A study of Mus musculus with 14 samples.

Results

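DNA methylation at 10 genes of the pluripotent state, Nanog, Zfp42, Esrrb, Tdgf1, Utf1, Dppa2, Dppa3, Dppa4, Dppa5a and Fbxo15, was examined by MBD-seq in 14 mouse cell samples. In MBD-seq, fragments carrying methylated CpG sites are pulled out of sonicated DNA with a methyl-CpG binding protein and sequenced, so that a peak of sequence tags marks methylated DNA with several CpG sites. The 10 genes, of 22225 protein-coding genes in the annotation, were taken as a fixed list of names, and a peak was assigned to one when it overlapped the gene, the 5 kb upstream of its start or the 2 kb downstream of its end on NCBI build 37 (mm9). The 5 kb upstream are called the promoter here, and the gene with the 2 kb downstream the body. The samples were 4 Aid+/+ and 4 Aid-/- induced pluripotent stem (iPS) cell clones at passage 6, 3 lines of embryonic stem (ES) cells and 3 mouse embryonic fibroblast (MEF) cultures, Aid+/+ and at passage 3. The labels give Aid as disrupted in the Aid-/- clones. The iPS clones and MEFs were male, mixed from the strains C57BL6, DBA and 129S4, and carried a Nanog-GFP reporter, whereas the ES samples were the lines RF8 (129SV), MG1.19 (129Ola) and B6 ES (C57BL6), whose labels name neither a reporter nor an Aid genotype. Cell type, strain and reporter differ together between the ES lines and the other groups and cannot be told apart. Each iPS sample is 1 clone, made from MEFs with retroviruses encoding reprogramming factors (Oct3/4, Klf4, Sox2 and in part of the experiments c-Myc) and grown under puromycin on gelatin. None of the 10 genes was introduced by these vectors. Clone names begin with a number, here called the clone series, whose meaning the labels do not give. Aid+/+ replicates 3 and 4 and Aid-/- replicates 1 and 2 share a series, and the other clones of each genotype have a series of their own. Clones of the same genotype and series may share their starting fibroblasts.

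These genes are silent in fibroblasts and active in pluripotent cells, which is why they are used as signs of complete reprogramming. Nanog, Esrrb and Zfp42 (also called Rex1) encode transcription factors of the pluripotent network, Utf1 a chromatin-bound protein, and Tdgf1 (Cripto) a co-receptor for Nodal. The Dppa genes are named for their expression in the early embryo: Dppa2 and Dppa4 encode partner proteins with a SAP domain, Dppa3 (Stella) a maternal factor that protects DNA from demethylation in the zygote, and Dppa5a (Esg1) an RNA-binding protein. Fbxo15 encodes an F-box protein and was the first marker used to select iPS cells. In mammals, CpG methylation over a gene start commonly accompanies silencing, while methylation inside the body of a gene is found in active genes too.

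The libraries differed in depth and in how well methylated DNA was enriched. The libraries held 20.1M to 36.9M tags (M, 1000000 tags), of which 6.65M to 19.6M remained after the filter on duplicates. Between 50.5% and 62.5% of the filtered tags lay in peaks in the Aid+/+ iPS clones and 49.6% to 62.2% in the Aid-/- clones, against 19.2% to 27.4% in the MEFs and 16.7% to 54.5% in the ES lines. ES replicate 2 (MG1.19) had 33694 peaks and stood apart from ES replicate 3 (C57BL6), which had 106385. Of 10 fibroblast genes (a list of collagen, Thy1, Twist and similar genes), 0 bodies and 1 promoter had a peak in every sample of one group and in none of the other for MEFs against Aid+/+ clones (5.78% of bodies and 3.52% of promoters of all genes), and the same numbers held against Aid-/- clones (4.33% and 2.56%). The promoter, named after its values were seen, was that of Col1a1, a collagen gene, with a peak in all 8 iPS clones and no MEF. Peaks show methylation and not expression, so the labelled cell types could not be checked against the expression of their markers.

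All 10 genes had at least 1 peak in at least 1 sample. The 139 peaks fell into 33 merged regions, of which 14 held a peak in a single sample and 10 held peaks in 7 or more of the 14 samples. A region is named here by its gene and the distance of its median summit from the gene start. Esrrb, by far the longest of the genes at 160512 bp, held 19 of the regions and 84 of the peaks. The summits lay in introns in 19 regions, in coding exons in 8, in untranslated exon sequence in 2, beyond the 3′ end in 3 and upstream of the start in 1. The DNA of the 33 regions had a median of 25.1 CpG per kb, compared with 22.2 over all 151119 merged regions of the genome and 8.34 over the whole genome.

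The sequences of the regions described in most detail are shown first, as 200 bases about the median summit of a region, read from NCBI build 37 on the strand of the gene, with each CpG in capitals. The capitals are the sites at which this assay can capture methylation. Zfp42 is on the minus strand of chromosome 8, and its first window (chr8:44391143-44391342) lies in an intron near the gene start, in the region that held a peak in MEFs alone, whereas its second (chr8:44381049-44381248) is coding sequence near the 3′ end. The Dppa3 window (chr6:122578605-122578804) is coding sequence of a plus-strand gene, and so is the Esrrb window at +109.3 kb (chr12:87811231-87811430); both had the most tags in MEFs. The Esrrb windows at +18.8 kb (chr12:87720735-87720934) and +100.8 kb (chr12:87802728-87802927) are intronic and had a peak in all 8 iPS clones. The last window is the 200 bases just upstream of Nanog (chr6:122657307-122657506), which is shown for its lack of CpG sites.
Zfp42 +1.1 kb: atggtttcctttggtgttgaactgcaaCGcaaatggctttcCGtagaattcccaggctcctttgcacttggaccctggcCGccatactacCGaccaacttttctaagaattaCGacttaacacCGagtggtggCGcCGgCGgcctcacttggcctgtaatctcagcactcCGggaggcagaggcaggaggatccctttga
Zfp42 +11.2 kb: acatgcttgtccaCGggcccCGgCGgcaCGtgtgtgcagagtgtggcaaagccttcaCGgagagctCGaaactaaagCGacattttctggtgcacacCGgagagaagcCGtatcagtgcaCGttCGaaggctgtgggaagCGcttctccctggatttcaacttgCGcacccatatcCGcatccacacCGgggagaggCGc
Dppa3 +2.3 kb: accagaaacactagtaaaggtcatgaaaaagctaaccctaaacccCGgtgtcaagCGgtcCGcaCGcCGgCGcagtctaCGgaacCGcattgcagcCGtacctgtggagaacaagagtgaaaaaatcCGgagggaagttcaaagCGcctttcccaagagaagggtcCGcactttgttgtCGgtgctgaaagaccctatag
Esrrb +109.3 kb: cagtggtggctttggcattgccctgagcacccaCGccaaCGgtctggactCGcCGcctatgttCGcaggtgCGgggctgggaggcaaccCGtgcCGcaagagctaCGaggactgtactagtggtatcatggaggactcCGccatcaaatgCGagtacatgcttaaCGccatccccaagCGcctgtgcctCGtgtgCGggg
Esrrb +18.8 kb: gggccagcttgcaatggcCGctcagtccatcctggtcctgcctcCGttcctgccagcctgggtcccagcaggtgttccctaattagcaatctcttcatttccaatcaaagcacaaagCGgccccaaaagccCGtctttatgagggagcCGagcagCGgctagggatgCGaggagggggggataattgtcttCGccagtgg
Esrrb +100.8 kb: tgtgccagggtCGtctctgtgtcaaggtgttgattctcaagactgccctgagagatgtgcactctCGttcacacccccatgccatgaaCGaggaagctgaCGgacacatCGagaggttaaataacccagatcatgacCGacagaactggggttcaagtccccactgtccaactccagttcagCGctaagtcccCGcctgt
Nanog upstream: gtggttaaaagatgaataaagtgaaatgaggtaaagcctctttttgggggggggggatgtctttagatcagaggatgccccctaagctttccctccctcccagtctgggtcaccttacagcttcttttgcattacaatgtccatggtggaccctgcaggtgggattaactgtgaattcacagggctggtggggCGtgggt

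These windows held 10 CpG sites at Zfp42 +1.1 kb, 16 at Zfp42 +11.2 kb, 13 at Dppa3 +2.3 kb, 15 at Esrrb +109.3 kb, 8 at both Esrrb +18.8 kb and Esrrb +100.8 kb, and 1 upstream of Nanog. Every one of the 7 windows occurred 1 time in the genome over its full length.

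Few of the 10 promoters held a peak in any cell type, and most promoters of all genes likewise held none. In the Aid+/+ iPS clones 0.25 ± 0.5 (SD, n = 4) of the 10 promoters had a peak, with 0.5 ± 0.58 (SD, n = 4) in the Aid-/- clones, 0 in each of the 3 ES lines and 1 ± 1 (SD, n = 3) in the MEFs. Over all protein-coding genes, 16.3% to 21.3% of promoters had a peak in the Aid+/+ clones, 17.6% to 19.3% in the Aid-/- clones, 5.32% to 23.7% in the ES lines and 9.32% to 13.4% in the MEFs. Of the 10 promoters, 7 had no peak in any of the 14 samples, a state found in 63.8% of all promoters. With the promoter taken from 1 kb upstream to 500 bp inside the gene, these values were 6 of the 10 and 78.2%. The order of members and all genes thus depended on the window. Only 1 summit, at Tdgf1, lay in a promoter, since the other peaks that reached one had their summits inside the gene. The 1 kb centred on the gene start held a median of 25 CpG sites over the 10 genes against 41 over all genes, and ranged from 9 at Fbxo15 to 64 at Utf1. The 5 kb upstream held a median of 60 in both.

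Bodies held peaks more often. A body peak was present in 4 ± 0.82 (SD, n = 4) of the 10 genes in the Aid+/+ clones, in 5 ± 0.82 (SD, n = 4) in the Aid-/- clones, in 3.33 ± 2.52 (SD, n = 3) in the ES lines and in 5 ± 1.73 (SD, n = 3) in the MEFs. The corresponding shares of all protein-coding genes were 58.7% to 65.4%, 57.2% to 62.8%, 31.8% to 66.9% and 40.9% to 53.5%. MEF replicates 1 and 2, with 6 genes each, were the samples in which the 10 genes exceeded the share of all genes, which was 48.3% and 53.5% there, while MEF replicate 3 had 3.

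**Figure D1:**
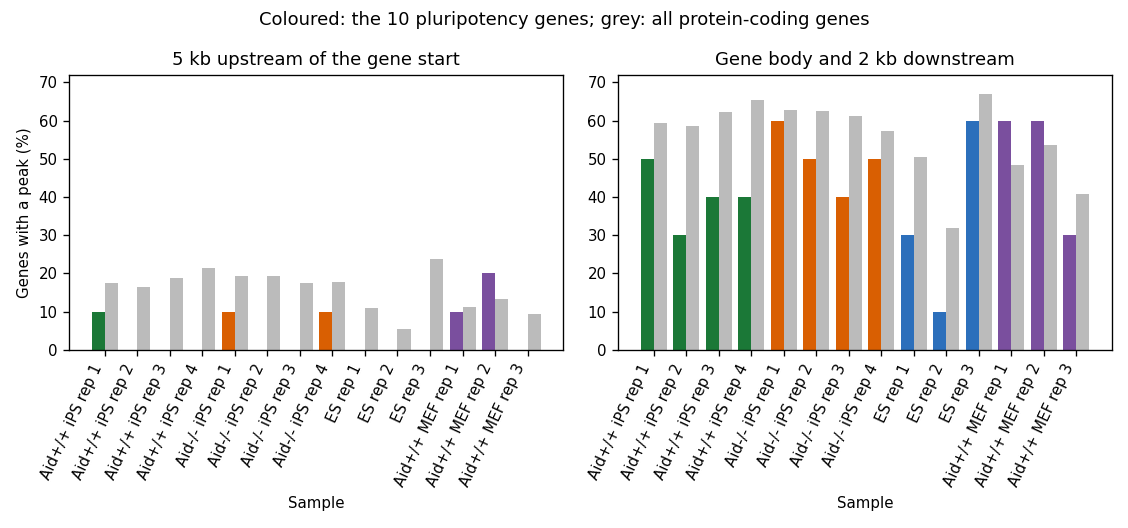
Percentage of genes with a peak in each sample (y axis, %), in the 5 kb upstream of the gene start (left) and in the gene body with 2 kb downstream (right); coloured bars are the 10 pluripotency genes and grey bars all 22225 protein-coding genes. In the left panel the coloured bars reach at most 2 of 10 genes, in MEF replicate 2, and are at 0 in the 3 ES lines.

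**Figure D2:**
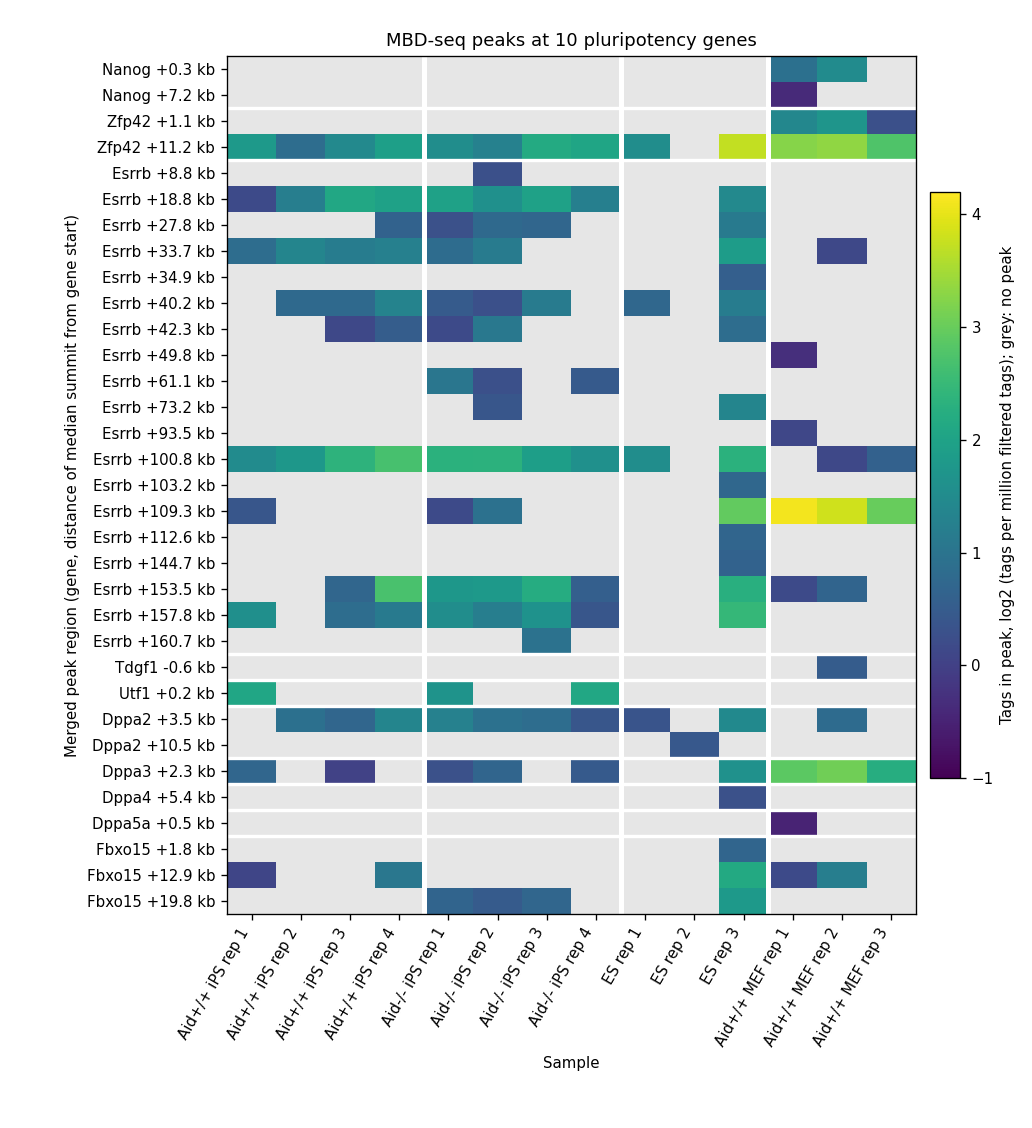
Tags in peaks, as log2 of tags per 1000000 filtered tags (RPM) (colour scale), for the 33 merged regions (rows, by gene and distance of the median summit from the gene start) in the 14 samples (columns, by group); grey cells have no peak. Zfp42 +1.1 kb is filled in the 3 MEF cultures and in no other sample, and Esrrb +18.8 kb in the 8 iPS clones and ES replicate 3.

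Whole promoters and bodies of the 10 genes did not separate the groups in any of the 5 comparisons made. A gene was counted as separated when every sample of one group and no sample of the other had a peak in the segment. Between Aid-/- and Aid+/+ clones, 0 of 10 members were separated by promoter or body, with 0.045% of all promoters and 0.0675% of all bodies separated. For MEFs against Aid+/+ clones 0 of 10 members were separated, beside 3.52% of promoters and 5.78% of bodies of all genes. The count was likewise 0 of 10 for MEFs against Aid-/- clones (2.56% of all promoters and 4.33% of all bodies), for ES lines against Aid+/+ clones (0.166% and 0.171%) and for MEFs against ES lines (0.81% and 1.32%). By Fisher's exact test, two-sided and adjusted by Benjamini-Hochberg over the 44450 segments of all genes, 0 segments of any gene passed in any of the 5 comparisons. The unadjusted p was under the threshold in 25, 2068, 75, 1532 and 0 segments for Aid-/- against Aid+/+ clones, MEFs against Aid+/+ clones, ES lines against Aid+/+ clones, MEFs against Aid-/- clones and MEFs against ES lines, none of them in a member. The smallest p that groups of this size allow is 0.0286 with 4 samples against 3 or 4, and 0.1 with 3 against 3. Only complete separation brings p under the threshold, so the unadjusted counts repeat the separated segments and are no further test. After adjustment a segment could pass only if most segments of all genes were separated, and with 3 against 3 none could. The lowest unadjusted p among members was 0.143 (two-sided Fisher's exact test). Nanog reached it in promoter and body, with 2 of 3 MEFs against 0 of 4 clones of either genotype. The body of Dppa2 reached it in the other direction, with 1 of 3 MEFs against 4 of 4 Aid-/- clones.

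Single regions within the genes did separate groups, and these counts were made after the segment counts had been seen. Relative to Aid+/+ clones, 1 member region, Zfp42 +1.1 kb, held a peak in every MEF culture and in no clone, against 1.46% of all regions, and 1, Esrrb +18.8 kb, had the opposite pattern, against 13% of all regions. For MEFs relative to Aid-/- clones the numbers were 1 (Zfp42 +1.1 kb; 0.826% of all regions) and 2 (Esrrb +18.8 kb and Esrrb +157.8 kb; 10.2% of all regions). Between MEFs and ES lines, Zfp42 +1.1 kb was again found in MEFs alone (0.473% of all regions), and 0 member regions were found in ES lines alone (1.98%). No member region separated ES lines from Aid+/+ clones, where 0.0214% of all regions were found in ES lines alone and 0.802% in the clones alone. None separated Aid-/- from Aid+/+ clones, where the shares of all regions were 0.0374% for Aid-/- clones alone and 0.178% for Aid+/+ clones alone. The MEF comparisons with both genotypes share the 3 MEF cultures and are not independent. Which regions separated depended on the peak threshold. At a peak p of at most 1e-10, Zfp42 +1.1 kb separated MEFs from no other group, Esrrb +18.8 kb no longer separated them from Aid+/+ clones, and Esrrb +109.3 kb and Esrrb +100.8 kb did separate them from clones of both genotypes. With an equal number of peaks per sample, Zfp42 +1.1 kb was still separated in all MEF comparisons, Esrrb +18.8 kb in none.

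Zfp42 held 1 region with peaks in MEFs alone and 1 with peaks in nearly all samples. The intronic region Zfp42 +1.1 kb held 52, 57 and 22 tags in MEF replicates 1, 2 and 3, with fold enrichments over the local background of 21.5, 24.6 and 6.72. No peak was called there in any of the 8 iPS clones or the 3 ES lines. MEF replicate 3 was therefore the weakest of the 3, and its peak was the one nearest to the calling threshold. MEF replicate 1 shared its MACS version, 1.4.0rc2, with the 3 ES lines and Aid-/- iPS replicate 3, none of which had a peak in the region. The part of the version was not tested.

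At the 3′ end of the gene, Zfp42 +11.2 kb held a peak in 13 of the 14 samples, ES replicate 2 being the exception. It contained 55, 21, 35 and 37 tags in Aid+/+ iPS replicates 1 to 4, and 31, 24, 30 and 48 tags in Aid-/- iPS replicates 1 to 4. MEF replicates 1 to 3 had 188, 176 and 124 tags, and ES replicates 1 and 3 had 30 and 206. Every MEF culture was above every iPS clone, the genotypes overlapped, and the ES lines spanned the whole range. Here and elsewhere, tags are those of each sample's own peak, and peaks differed in width. At this region they spanned 969 to 1180 bp in MEFs, 488 to 862 bp in Aid+/+ clones and 519 to 986 bp in Aid-/- clones. The part of peak width in the tags was not tested. The level in tags per 1000000 filtered tags (RPM) was 2.96 ± 0.894 (SD, n = 4) in Aid+/+ clones, 3.51 ± 0.999 (SD, n = 4) in Aid-/- clones and 8.82 ± 1.75 (SD, n = 3) in MEFs. By edgeR's quasi-likelihood test over regions with a peak in every sample compared, the log2 difference of MEFs minus Aid+/+ clones was 2.81 with a standard error of 0.25 (Benjamini-Hochberg adjusted p = 1.43e-06). The difference of MEFs minus Aid-/- clones was 2.50 with a standard error of 0.22 (edgeR, adjusted p = 5.05e-08). It was the only member region that could be tested in either comparison, and 43.3% of all regions tested (5458 higher and 4497 lower in MEFs) and 46% (5695 higher and 5294 lower) passed in them. Scaling by filtered tags in place of TMM, edgeR's trimmed mean of M-values, moved the median of all regions to -1.30 and -1.22, and the differences at Zfp42 +11.2 kb were then 1.57 and 1.34, both still called, while the split of all calls became 1330 higher and 18101 lower against Aid+/+ clones and 1805 and 18636 against Aid-/- clones. On the fold enrichment, which was 23.2 ± 7.57 (SD, n = 4) in Aid+/+ clones and 29.2 ± 0.663 (SD, n = 3) in MEFs, limma did not call the difference (log2 difference 0.39, adjusted p = 0.241). Among samples called with MACS 1.4.1, the 4 Aid+/+ clones had 21 to 55 tags and Aid-/- iPS replicates 1, 2 and 4 had 31, 24 and 48. MEF replicates 2 and 3, also called with it, had 176 and 124. With version 1.4.0rc2, Aid-/- iPS replicate 3 had 30 tags, MEF replicate 1 had 188, and ES replicates 1 and 3 had 30 and 206. The part of the version in these values was not tested.

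Dppa3 showed the same order. Its single region, Dppa3 +2.3 kb in coding sequence, held 145, 147 and 86 tags in MEF replicates 1 to 3. A peak was called in Aid+/+ iPS replicates 1 and 3 with 26 and 13 tags, in Aid-/- iPS replicates 1, 2 and 4 with 13, 16 and 16 tags, and in ES replicate 3 with 48 tags. By tags the MEFs were thus above every other sample with a peak, and in the remaining 5 samples no peak was called. Fold enrichment was 20.9 ± 2.25 (SD, n = 3) in the MEFs, and 8.53 to 14.99 where a clone had a peak. In ES replicate 3 it was 22.87, above the highest MEF (22.52), so the order did not hold for fold enrichment. Regions with missing peaks were also put through edgeR with a missing peak set to 0 tags and at least as many peaks required as the smaller group has samples. In MEFs against Aid+/+ clones this called 5 of 12 member regions and 31.1% of all regions, and against Aid-/- clones 6 of 14 and 27.4%. Apart from Zfp42 +11.2 kb, and Dppa3 +2.3 kb against Aid-/- clones, the member regions called had passed the filter only through the group in which they were high, so these calls add nothing to the peaks themselves, and no p is given for them. For Dppa3 +2.3 kb against Aid-/- clones the adjusted p of edgeR was 0.0063, with 1 clone set to 0. A missing peak means fewer tags than the caller needed rather than no tags, the smallest peak in any file having 10 tags, so no fold change is given for regions with missing peaks.

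**Figure D3:**
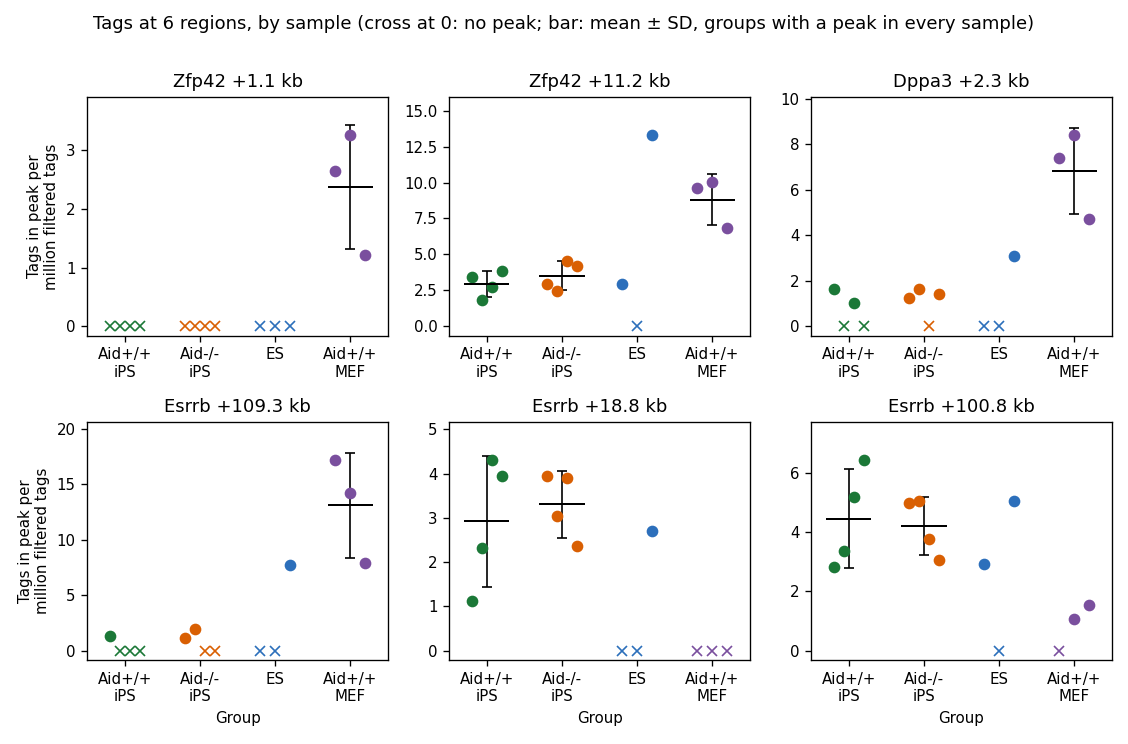
Tags in peaks per 1000000 filtered tags (RPM; y axis, linear) at 6 regions in each sample, by group (x axis); points are samples, crosses at 0 are samples with no peak, and bars give the mean ± SD where every sample of the group had a peak. The MEF points lie above the points of all iPS clones with a peak at Zfp42 +11.2 kb, Dppa3 +2.3 kb and Esrrb +109.3 kb. At Zfp42 +1.1 kb the iPS clones have no peak, and at Esrrb +18.8 kb the MEFs have none. A cross is a missing peak and not a measured level of 0.

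Esrrb held peaks of both kinds, in different parts of the gene. Over its 19 regions, Aid+/+ clones had peaks in 6 ± 1.83 (SD, n = 4), Aid-/- clones in 8.5 ± 3.11 (SD, n = 4), ES lines in 5.33 ± 7.57 (SD, n = 3) and MEFs in 3.33 ± 1.15 (SD, n = 3). ES replicate 2 had 0 and ES replicate 3 had 14, so that the ES lines covered the range of all other samples. None of the 19 regions lay upstream of the gene.

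The Esrrb peaks with the most tags were those of the MEFs at +109.3 kb, in coding sequence. They held 337, 248 and 144 tags in MEF replicates 1 to 3, with fold enrichments of 27.5, 25.5 and 26.1. ES replicate 3 had 120 tags there, Aid+/+ iPS replicate 1 had 21, and Aid-/- iPS replicates 1 and 2 had 12 and 19. The other 7 samples had no peak, and by tags every MEF was above every other sample with a peak. How many regions of the genome have this order was not counted. By edgeR, 23.7% of regions tested were higher in MEFs than in Aid+/+ clones, and 23.8% were higher than in Aid-/- clones. Esrrb +109.3 kb was not among the regions tested, as some clones had no peak. By fold enrichment they were not the highest in the gene, since iPS clones reached 35.65 at +100.8 kb and 33.35 at +18.8 kb.

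In contrast, the intronic region Esrrb +18.8 kb had a peak in all 8 iPS clones and in none of the MEFs. It contained 18, 27, 55 and 38 tags in Aid+/+ iPS replicates 1 to 4 and 42, 30, 26 and 27 tags in Aid-/- iPS replicates 1 to 4. ES replicate 3 had 42 tags, and the other ES lines had no peak. The level was 2.93 ± 1.48 (SD, n = 4) RPM in Aid+/+ clones and 3.31 ± 0.761 (SD, n = 4) in Aid-/- clones, and the genotypes overlapped.

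Esrrb +100.8 kb, also intronic, was the member region most widely shared after Zfp42 +11.2 kb, with peaks in 12 samples. Aid+/+ iPS replicates 1 to 4 had 45, 39, 66 and 62 tags there, and Aid-/- iPS replicates 1 to 4 had 53, 50, 25 and 35. MEF replicates 2 and 3 had 19 and 28 tags and replicate 1 had no peak, while ES replicates 1 and 3 had 30 and 78. Fold enrichment was 29.0 ± 2.15 (SD, n = 4) in Aid+/+ clones, 32.3 ± 4.47 (SD, n = 4) in Aid-/- clones, and 8.21 and 9.60 in the MEFs with a peak. Lower fold enrichment in MEFs was common over the genome. Limma called it at 26.2% of regions tested against Aid+/+ clones and at 29.8% against Aid-/- clones. Esrrb +100.8 kb was not among the regions tested there, as MEF replicate 1 had no peak.

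Near the 3′ end, Esrrb +157.8 kb held peaks in Aid+/+ iPS replicates 1, 3 and 4 (48, 23 and 21 tags), in all Aid-/- clones (31, 23, 21 and 15 tags) and in ES replicate 3 (85 tags). It had none in the MEFs. Esrrb +153.5 kb, by comparison, had peaks in 2 Aid+/+ clones, 4 Aid-/- clones, 1 ES line and 2 MEFs, and Esrrb +33.7 kb in 4, 2, 1 and 1 of them. Esrrb +40.2 kb was found in 3 clones of each genotype, 2 ES lines and no MEF. The other 12 regions of the gene had peaks in 1 to 5 samples each.

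**Figure D4:**
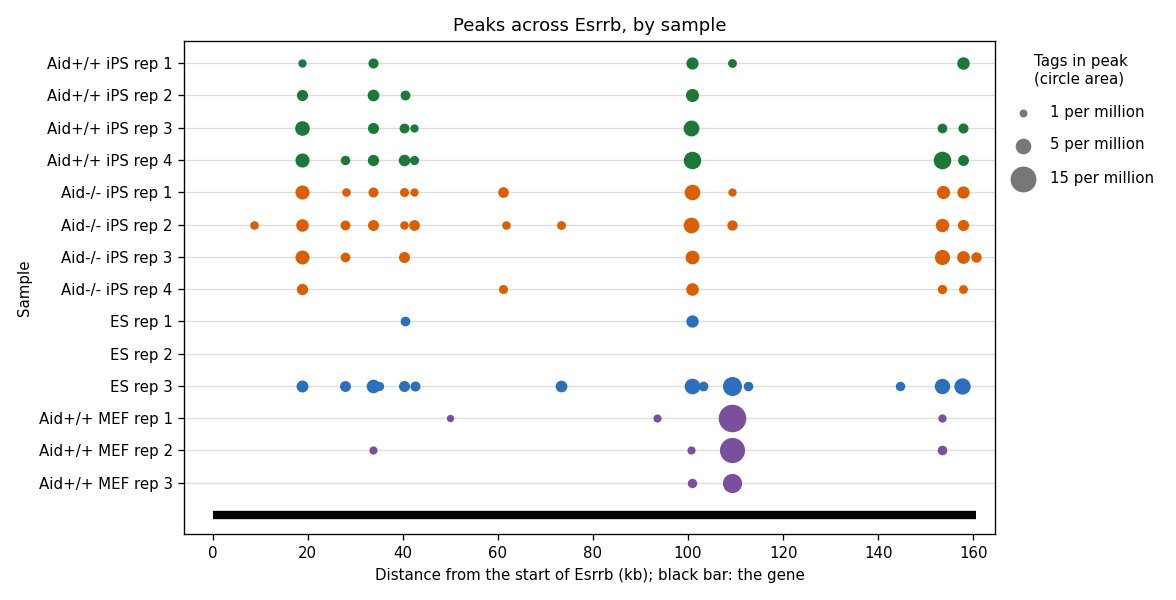
Peaks across Esrrb in each sample (rows, coloured by group), placed by their distance from the gene start (x axis, kb); the area of a circle is proportional to its RPM, and the black bar is the gene. The largest circles are those of the 3 MEFs at +109.3 kb, and the column at +18.8 kb is filled in the 8 iPS clones and ES replicate 3 alone.

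Nanog, the gene whose reporter was used to find the clones, had no peak in any iPS clone or ES line. In MEFs a wide peak over its first exon, Nanog +0.3 kb, held 37 tags in replicate 1 and 50 tags in replicate 2, with low fold enrichments of 7.93 and 7.18. MEF replicate 1 had a further peak just beyond the 3′ end with 15 tags, and MEF replicate 3 had none. Both wide peaks reached into the promoter. At a peak p of at most 1e-10, Nanog had a promoter or body peak in 0 of 3 MEFs, and likewise with an equal number of peaks per sample. The 200 bases upstream of the gene hold 1 CpG, the 1 kb about the start holds 17 (percentile 30.9 of all genes), and the whole 5 kb upstream holds 76 (percentile 67.6). MEFs and iPS clones both carry the Nanog-GFP reporter, whose sequence beyond the reporter gene is not given in the sources used here, and whether reads from it fall on the Nanog gene was not tested.

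Tdgf1 and Dppa5a each had a single peak, also in a MEF culture. The Tdgf1 peak lay in the promoter, with its summit at -553 bp from the start, in MEF replicate 2, with 25 tags and a fold enrichment of 7.99. That at Dppa5a was in MEF replicate 1, with 14 tags and a fold enrichment of 7.43. Both were at the low end of their libraries (percentiles 15.1 and 8.97 of fold enrichment), and neither was seen in the other MEFs.

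Utf1, which had the most CpG-dense start of the 10 genes, was the only member with a promoter peak in iPS clones. Its peak spanned the start and most of this short gene, with 67 tags in Aid+/+ iPS replicate 1, 34 in Aid-/- iPS replicate 1 and 50 in Aid-/- iPS replicate 4. No other sample had one. The fold enrichments were 9.62, 9.23 and 9.30. Its region contained 77.6 CpG per kb, the highest of the 33, followed by Esrrb +61.1 kb with 72.6. The latter had peaks in Aid-/- iPS replicates 1, 2 and 4 (22, 12 and 16 tags) and in no other sample. Of the 2373 regions of the genome with at least 60 CpG per kb, 1040 had a peak in Aid+/+ iPS replicate 1, and 965, 764 and 1636 in Aid-/- iPS replicates 1, 2 and 4. The other 4 iPS clones had 67 to 106, the ES lines 49 to 385 and the MEFs 395 to 426. These 4 clones are also the iPS samples whose headers give MACS 1.4.1 and a run name without a prefix. The 2 most CpG-dense member regions thus had peaks in no library but those 4, and the part of this library difference in the peaks at Utf1 and Esrrb +61.1 kb was not tested. The pattern of Utf1, a promoter peak in those 3 samples and in no other, was shared by 42 other protein-coding genes.

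**Figure D5:**
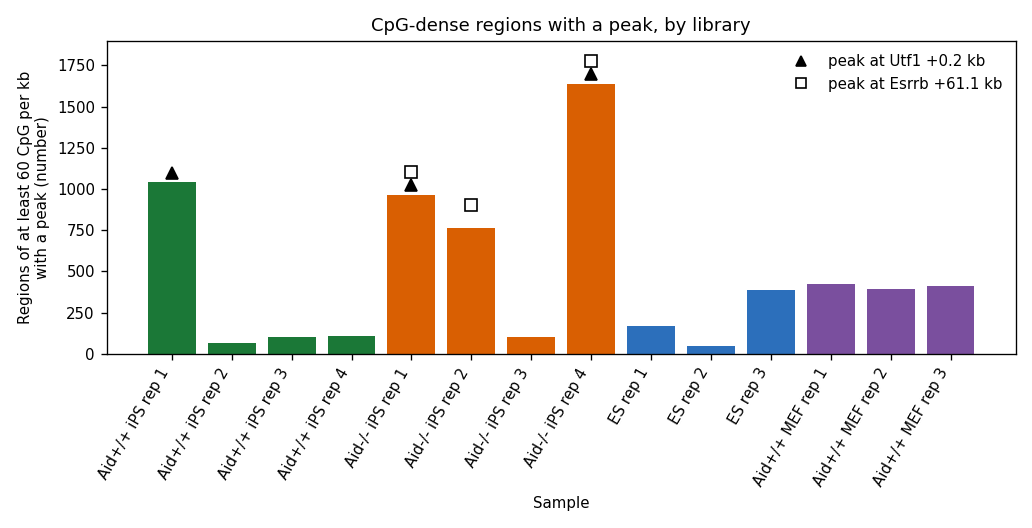
Number of merged regions with at least 60 CpG per kb that had a peak (y axis) in each sample (x axis, coloured by group); triangles mark samples with a peak at Utf1 +0.2 kb and open squares those with a peak at Esrrb +61.1 kb. The marked samples are the 4 tallest bars, between 764 and 1636 regions.

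The partners Dppa2 and Dppa4, which are neighbours on the chromosome, differed. Dppa2 +3.5 kb held a peak in 10 samples, with 22, 21 and 25 tags in Aid+/+ iPS replicates 2 to 4 and 26, 19, 12 and 15 tags in Aid-/- iPS replicates 1 to 4. ES replicates 1 and 3 had 13 and 43 tags and MEF replicate 2 had 31. The level was 1.87 ± 0.463 (SD, n = 4) RPM in the Aid-/- clones, and samples of all groups overlapped. ES replicate 2 had a peak just beyond the 3′ end of the gene, at +10.5 kb. Dppa4 had a single peak, in ES replicate 3, with 19 tags.

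Fbxo15 had peaks at 3 places in its introns. Fbxo15 +12.9 kb was found in Aid+/+ iPS replicates 1 and 4 (17 and 20 tags), ES replicate 3 (69 tags) and MEF replicates 1 and 2 (22 and 41 tags), but in no Aid-/- clone. Fbxo15 +19.8 kb was found in Aid-/- iPS replicates 1, 2 and 3 (17, 14 and 11 tags) and in ES replicate 3 (54 tags), but in no Aid+/+ clone. The summit window of the latter had 2080 further matches of 150 bases or more in the genome, none of 95% identity. These peaks held few tags in the iPS clones, and neither region separated the genotypes under the rule above. The third, at +1.8 kb, was found in ES replicate 3 alone.

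For Aid-/- against Aid+/+ clones, 3 member regions had a peak in all 8 clones and could be tested, and 0 of them were called by edgeR, as against 0.002% of all 49923 regions. The log2 difference of Aid-/- minus Aid+/+ clones was 0.28 at Esrrb +18.8 kb (95% interval -0.40 to 0.96), 0.02 at Esrrb +100.8 kb (-0.56 to 0.61) and 0.29 at Zfp42 +11.2 kb (-0.38 to 0.95). The unadjusted p ranged from 0.373 to 0.93, the adjusted p was 1.0 at each, and DESeq2 called 0 of the 3 (24 regions over the genome, with 1781 at an unadjusted edgeR p under the threshold). With missing peaks admitted, 11 member regions were tested and 0 were called, as were 0% of 87151 regions, with 1496 regions at an unadjusted p under the threshold. The intervals of the 3 regions leave room for differences of up to 0.96 log2 units. Of ES lines and Aid+/+ clones, compared next, no member region had a peak in every sample. With missing peaks admitted, 0 of 11 member regions were called, beside 0.00329% of all regions, and MEFs against ES lines gave 0 of 8, beside 0% of 51717 regions, with 6311 at an unadjusted edgeR p under the threshold.

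Some of these regions have close copies elsewhere in the genome, and tags from a copy could have been placed on the gene or the reverse. By BLAST, the 200 bases about the summit had another match of at least 95% identity over at least 150 bases for 4 of the 33 regions. For Dppa2 +3.5 kb there were 3, the closest being identical over 155 bases at the pseudogene Gm9788 on chromosome 19, where 12 of the 14 samples had a peak. The values at Dppa2 are uncertain for this reason. Dppa3 +2.3 kb matched a pseudogene on chromosome X at 98% over 200 bases, which had peaks in 11 samples with 22 to 90 tags. These were 42 to 70 tags in Aid+/+ clones, 22 to 53 in Aid-/- clones and 78 in ES replicate 3. MEF replicates 1 and 2 had 90 and 38 there, and MEF replicate 3 had no peak. The values at Dppa3, with the adjusted p given above, are uncertain for the same reason. Zfp42 +11.2 kb matched a place on chromosome 15 at 98.2% over 165 bases, where all 14 samples had a peak. The copy had 78 to 109 tags in Aid+/+ clones, 59 to 89 in Aid-/- clones and 40 to 66 in MEFs. How reads that match both places were divided between them was not tested. Dppa5a had 2 copies at 99.5%, one of them Dppa5b, which had a peak in Aid+/+ iPS replicate 4 alone. Zfp42 +1.1 kb and the regions of Esrrb, Nanog, Utf1 and Tdgf1 had no such copy. Utf1 also shares its window with Kndc1 and Fbxo15 shares its window with 1700034H14Rik, so a peak there may belong to either gene.

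Among all protein-coding genes, those whose tags followed a member most closely over the 14 samples were named as a description, using Pearson's r of log2(1 + RPM) over promoter and body. They were Tnfsf4 (r = 0.897), Hadha (0.875) and Katna1 (0.863) for Dppa2, and Tmem59l (0.977), 2410015M20Rik (0.965) and Rpl36 (0.965) for Dppa3. For Utf1 they were Rps7 (0.999), Foxd3 (0.998) and Fev (0.997), and for Fbxo15 they were the overlapping 1700034H14Rik (0.999), Hmga1 (0.933) and Pbld2 (0.927). The points share their libraries and depth, and for Utf1 the value rests on the 3 samples with a peak.

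Of a list of 25 other genes tied to pluripotency, such as Sall4, Lin28a and Tbx3, 22 were matched in the annotation and few were separated. By promoter peaks, 1 of 22 was separated between MEFs and each of the 3 other groups, where 3.52% (Aid+/+ clones), 2.56% (Aid-/- clones) and 0.81% (ES lines) of all promoters were. It was Nr5a2, which encodes a nuclear receptor and had a promoter peak in all 8 iPS clones and all 3 ES lines and in no MEF. Its fold enrichment there was 10.99 to 32.97 in Aid+/+ clones, 18.48 to 29.98 in Aid-/- clones and 11.46 to 15.46 in ES lines. By body peaks, 1 of 22 was separated between MEFs and Aid+/+ clones (5.78% of all bodies), Klf2, which encodes a Krüppel-like factor, with a peak in all MEFs (fold enrichment 11.7 to 18.6) and in no Aid+/+ clone, while 3 Aid-/- clones and 2 ES lines had one. Between the iPS genotypes, and between ES lines and Aid+/+ clones, 0 of the 22 were separated in either segment.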

How the data were processed

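MBD-seq peak lists of 14 samples were used, 1 per sample, with no pooling. Per the labels and the file headers, the authors called bases with CASAVA 1.8.1, mapped 75-bp single reads to mm9 with BWA 0.5.9rc1 and called peaks with MACS (1.4.1, or 1.4.0rc2 in 5 headers) at p = 1e-05 with no control, keeping at most 2 tags per position. For each peak the authors deposited the tag count, a score (-10 times log10 of the p-value) and the fold enrichment, a ratio over the local background in a 10 kb window. Weak regions of a shallow or poorly enriched library are missing from such lists.

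Groups came from the sample titles. Replicates are separate clones, lines or cultures, and samples of a group shared at most 1 peak with identical bounds and tag count. Peaks were assigned by an overlap of at least 1 bp to genes of the GENCODE annotation of NCBI build 37, and tags were divided by the filtered tags of the header where a level is given. Merged regions were tested with edgeR 4.0.16 (quasi-likelihood, TMM) on the tag counts of all regions of the genome, with limma 3.58.1 and DESeq2 1.42.0 as alternatives, and the code was tested on simulated data. Calls were made at an adjusted p under 0.05. Copies were sought with BLAST 2.17.0. All 10 members were named, with the 3 genes of highest correlation for each member with peaks in 3 to 11 samples, and of the related genes those separated in a comparison. The members, lists and tests were chosen with earlier results of these data known. The disrupted gene itself is not reported here.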

Additional observations from a re-analysis of the deposited data

Results flagged for a closer look

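In 24 sets of 4 values for iPS clones (level in RPM and fold enrichment at member regions with a peak in all 4 clones of a genotype, and members with a promoter or body peak), Dixon's criterion asked whether 1 clone lay far from the other 3. It picked 1 set, the number of members with a promoter peak in Aid+/+ clones. This number was 1 in replicate 1, the peak at Utf1, and 0 in the other 3 clones. Any 3 equal counts with 1 different count meet the criterion, so the flag says nothing beyond the counts. Level and fold enrichment come from the same peaks, so no chance rate is given for the 24 sets. The library of Aid+/+ replicate 1 also had 1040 CpG-dense regions with a peak against 67 to 106 in the other 3 Aid+/+ clones, and the part of this in the Utf1 peak was not tested.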

How the results depend on the processing

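With whole promoters, 0 members were separated in every comparison, and 1 (Nanog) against Aid+/+ clones, Aid-/- clones and ES lines without MEF replicate 3, so leaving out samples gave 0 to 1. With bodies, an equal number of peaks per sample separated 1 member (Dppa3) in MEFs against each of the other groups, a peak p of at most 1e-10 separated 1 (Dppa3) against Aid-/- clones, and leaving out samples gave 0 to 1 in each MEF comparison (Nanog without MEF replicate 3, Dppa2 without MEF replicate 2 against Aid-/- clones and ES lines, Dppa3 without ES replicate 3). The number of separated regions, a measure chosen after seeing the data, ranged on leaving out a sample from 0 to 1 for Aid-/- against Aid+/+ clones (1 without Aid-/- replicate 3, Esrrb +61.1 kb, and 1 without replicate 4, Fbxo15 +19.8 kb), from 0 to 2 for ES lines against Aid+/+ clones (2 without ES replicate 3), from 2 to 4 for MEFs against Aid+/+ clones (4 without Aid+/+ replicate 1), from 3 to 6 for MEFs against Aid-/- clones (6 without Aid-/- replicate 4 and 5 without MEF replicate 3) and from 1 to 3 for MEFs against ES lines (3 without ES replicate 3, 2 without ES replicate 2 or MEF replicate 3). For the last, 0 regions remained separated at a peak p of at most 1e-10 and 2 at an equal number of peaks. Against the iPS clones the counts at these settings were 3 (Aid+/+) and 4 and 3 (Aid-/-), but for other regions: at 1e-10 Zfp42 +1.1 kb was lost against both genotypes and Esrrb +18.8 kb against Aid+/+ clones, and at an equal number of peaks Esrrb +18.8 kb was lost against both. The cause of these shifts was not tested.

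By edgeR, the member regions called in MEFs against Aid+/+ clones were 1, or 5 with missing peaks admitted (4 of them let in only by the group where they were high, so no support) and 0 with limma, where Zfp42 +11.2 kb had a log2 difference of 0.39. Against Aid-/- clones they were 1, or 6 with missing peaks admitted, under the same limit except for Zfp42 +11.2 kb and Dppa3 +2.3 kb. Leaving out a sample gave 1 to 2 (2 without Aid-/- replicate 3, adding Dppa3 +2.3 kb). The difference at Zfp42 +11.2 kb was 0.39 to 3.00 and 0.52 to 2.71 over all settings. For Aid-/- against Aid+/+ clones the uncalled differences changed sign: to -0.083 at Esrrb +18.8 kb with the clone series as a term, at Esrrb +100.8 kb to -0.066 by filtered tags and -0.044 with the clone series, with -0.10 to 0.21 on leaving out a clone (below 0 without Aid+/+ or Aid-/- replicate 1 or 2), and at Zfp42 +11.2 kb to -0.13 with limma and -0.13 with the clone series. Genotype and clone series coincide in part. With the series as a term, the differences rest on Aid+/+ replicates 3 and 4 against Aid-/- replicates 1 and 2, since the other series hold 1 genotype each. The other settings run left the numbers of members and of regions called as they were and these differences with their direction and side of the threshold, while the number of members with a peak moved by more than 1 SD in 13 of its settings for promoters and 18 for bodies (57 and 52 did not). Peaks under the caller's threshold, ES replicate 2 and the 3 or 4 samples per group limit what could be seen.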
